A study of Rattus norvegicus with 6 samples.

Results

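The genes described here are Sncg, which encodes gamma-synuclein, and Sncb, which encodes beta-synuclein. They were matched by symbol in the table of the whole series, after having been selected on the mean abundances and the difference between cell types that this table shows, and 1 of the 2 has a row among the 14607 genes listed. That gene is Sncg (ENSRNOG00000058006). Sncb has no row. Genes are missing either because a sample gave no read for them or because the transcript set did not hold them. Which of these applies to Sncb cannot be told apart here, so no value of it is given.

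Messenger RNA was sequenced from 3 VSMC and 3 mcPC samples of male Sprague-Dawley rats aged 4 to 5 weeks. VSMCs, the vascular smooth muscle cells of cortical arterioles, were sorted positively with a lectin after endothelial cells and microglia had been removed. Mid-capillary pericytes (mcPCs), the mural cells of capillaries, were what was left of the filtrate after endothelial cells, microglia, astrocytes and oligodendrocytes had been removed. Cortices of several rats were pooled in each isolation, no rat carried a transgene or a treatment, and no group is a knockout.

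Synucleins are small, soluble proteins without a fixed fold that bind acidic lipid membranes through a series of imperfect repeats. Beta-synuclein is known from presynaptic terminals of the brain. Gamma-synuclein is known from peripheral sensory and motor neurons, from adipose tissue and from several tumours. Both bind vesicle membranes, and synucleins are handled by kinases, by chaperones and by lysosomal proteases, which is why genes of these groups are described below beside Sncg.

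Each value is the authors' mean of a cell type, because the table used here gives no value per sample. No spread between isolations and no test can therefore be given, and the members had been chosen with results of these data known. The labelled cell types were set beside marker lists, which were also written with earlier results of these data known. Of 18 smooth muscle genes 17 were at least 4-fold lower in mcPCs, and of 14 pericyte genes 9 were at least 4-fold higher. These counts compare with 5.72% of all genes that were at least 4-fold lower in mcPCs and 12.4% that were at least 4-fold higher. Lists for several other cell types, given below, also had most of their genes at least 4-fold higher in mcPCs. The reads assigned to genes came to 61978061 per VSMC sample and 47990230 per mcPC sample on average. In mcPCs 66.7% of the summed TPM (transcript abundance per length, scaled to the same total in each sample) belonged to erythrocyte and hemoglobin genes, against 0.882% in VSMCs.

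Because Sncg stood among the genes with the lowest ratios of mcPCs to VSMCs, the 250 bases before its annotated start are shown. They were read from the RefSeq promoter table of GRCr8, where they lie on the minus strand at chr16:9711337-9711586. Only the GC box, a binding motif of Sp1-type factors with the letters GGGCGG, is in capitals, and it lies on the opposite strand, from base -73 to base -68 counted from the start.
Sncg: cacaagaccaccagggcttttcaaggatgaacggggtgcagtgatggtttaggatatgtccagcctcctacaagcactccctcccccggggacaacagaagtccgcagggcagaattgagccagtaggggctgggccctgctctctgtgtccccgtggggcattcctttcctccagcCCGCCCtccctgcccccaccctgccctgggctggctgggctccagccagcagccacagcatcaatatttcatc

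The stretch holds 61.6% G and C. Both strands were searched for 5 motifs, and 30.5% of the 33469 promoter stretches of the same length hold a GC box. No match was found in the Sncg stretch for the TATA box (TATAAA), the E-box (CANNTG), the AP-1 motif (TGACTCA or TGAGTCA) or the CArG box, the motif of serum response factor. These motifs occur in 12.9%, 65.5%, 4.05% and 1.5% of all stretches. The 13 smooth muscle genes with an entry showed 6 promoters with a GC box, 9 with an E-box, 2 with an AP-1 motif, 0 with a TATA box and 0 with a CArG box in the letters searched. A missing match says only that the letters searched are not in this window, and a variant in other letters would be missed.

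Sncg was a highly abundant transcript of VSMCs. Its authors' mean was 2151 TPM in VSMCs, against 1.35 TPM in mcPCs. In VSMCs it was the gene with rank 44 of all those listed, above 99.7% of them, and 169.8 times the median gene, which had 12.7 TPM. It stood there between Ppia, a widely expressed peptidyl-prolyl isomerase with 2188 TPM, and Mcam, an adhesion molecule of mural cells with 2120 TPM. How the spread over samples bears on this order is not known, since means only are at hand. In mcPCs Sncg lay above 29.6% of the listed genes, below the median gene with 3.59 TPM. Scaling TPM again after leaving out erythrocyte and hemoglobin genes raised the mcPC level to 4.06 TPM and that of VSMCs to 2174 TPM.

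The level of Sncg in mcPCs rested on few reads. The estimated counts came to 147911 reads over the 3 VSMC samples, or 49304 per sample, and to 163 reads over the 3 mcPC samples, or 54.3 per sample. The authors' mean of normalized counts, in which library size and transcript length are corrected, was 35020 in VSMCs and 72.0 in mcPCs. Mean normalized counts were thus 486 times as high in VSMCs, with a 95% interval of 417 to 570 that covers counting error only. On the log2 scale the ratio of mcPCs to VSMCs was -8.93 (95% interval -9.16 to -8.70). In bulk samples such as these, fewer cells that express a gene and less of its RNA per cell cannot be told apart. The mean effective length of the Sncg transcripts was 562 bases in VSMCs and 556 bases in mcPCs.

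**Figure D1:**
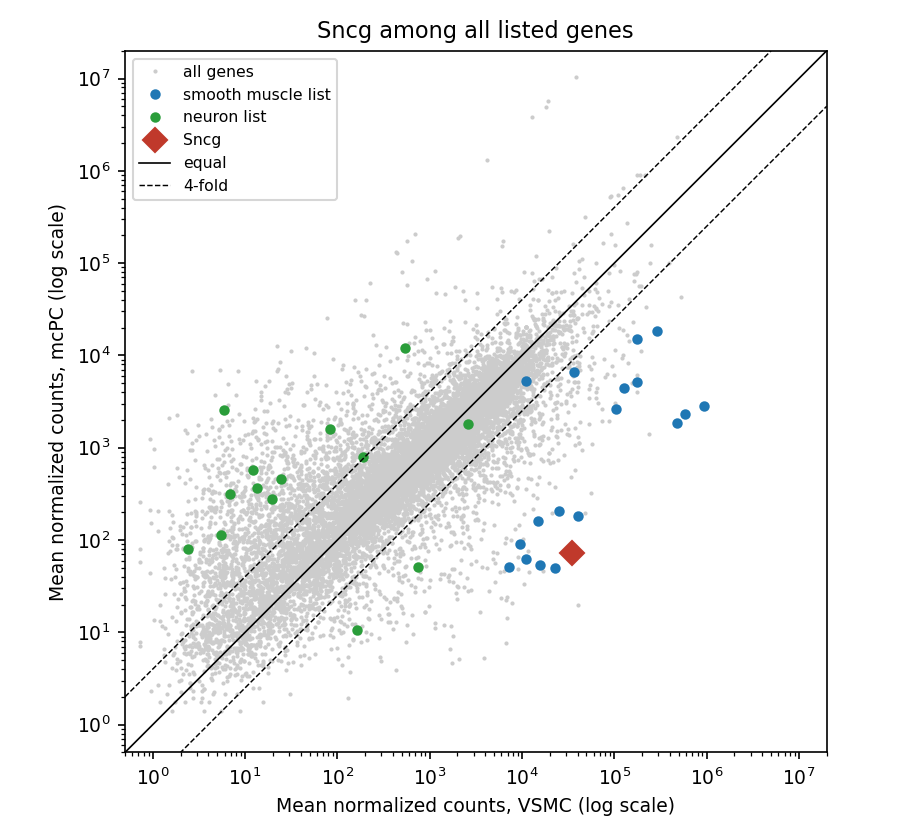
Mean normalized counts of each listed gene in VSMCs (horizontal axis) and mcPCs (vertical axis), both on log scales, with Sncg as a diamond, smooth muscle and neuron lists in colour, and lines for equal and 4-fold different means. Sncg, at 35020 and 72.0 normalized counts, lies with most smooth muscle genes far below the lower 4-fold line. Of the smooth muscle genes Ppp1r14a lies inside the 4-fold lines. Most neuron genes lie above the upper line.

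Ordered by this ratio, Sncg had rank 4 from the lowest of all listed genes. Genes for which any sample had no read are not listed, so they have no rank here. Lower ratios were found for Xirp1 (-10.99), which encodes an actin-binding protein of muscle, for Kcna5 (-9.79), which encodes the potassium channel Kv1.5, and for Susd5 (-9.50). The counting interval of Kcna5 (-10.50 to -9.16) ends where that of Sncg begins, and that of Susd5 (-10.46 to -8.70) reaches over it. Srl, which encodes the calcium-binding protein sarcalumenin of the sarcoplasmic reticulum, followed with -8.91, and Pln, which encodes the calcium pump inhibitor phospholamban, with -8.85. Their counting intervals also hold the value of Sncg, so the order of these neighbours is not settled by the reads behind them.

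Sncg differed from these neighbours in its level in VSMCs. Xirp1 had 239.9 TPM, Kcna5 145.6 TPM, Susd5 80.8 TPM, Srl 49.0 TPM and Pln 387 TPM there, against 2151 TPM for Sncg. Of the 151 genes with at least 1000 TPM in VSMCs, a limit chosen after the values were seen, 46 were at least 4-fold lower in mcPCs. Over all genes the share was 5.72%, but picking genes by a high VSMC level raises it by itself. Sncg had the lowest ratio of the 151, and it had been selected on its level and its difference. Myh11, the smooth muscle myosin heavy chain, came next with a ratio of -8.35 (95% interval -8.39 to -8.32), followed by the actin-binding protein transgelin, Tagln, with -8.02, and smooth muscle actin, Acta2, with -7.99.

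The normalized level that remained in mcPCs can be set beside that of contractile genes. It was 0.206% of the VSMC level for Sncg, 0.216% for Pln, 0.306% for Myh11, 0.385% for Tagln and 0.393% for Acta2. Over the 18 smooth muscle genes the remaining level had a median of 0.881% and ran up to 48.5% for Ppp1r14a, which encodes an inhibitor of myosin phosphatase. All 18 had higher ratios than Sncg, which had itself been selected on this difference. In level, 6 of them were above Sncg in VSMCs, led by Tagln with 19824 TPM and Acta2 with 17233 TPM. The median log2 ratio of the list was -6.83, beside 0.01 over all listed genes.

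The 5 genes nearest to Sncg were found by the distance between log2(TPM + 0.1) values of the 2 cell types, a likeness that rests on 2 means only. The nearest was Adamts1, which encodes a secreted metalloprotease, with 1942 TPM in VSMCs, against 3.33 TPM in mcPCs (distance 1.25). Fmod, which encodes the collagen-binding proteoglycan fibromodulin, had 581 and 0.981 TPM (distance 1.94). Mt2A, a metallothionein that binds zinc and copper, had 1299 and 5.34 TPM (distance 2.04). Myh11 had 5085 and 4.60 TPM (distance 2.10) and Cav1, which encodes the caveolar coat protein caveolin-1, had 497 and 2.05 TPM (distance 2.19). That each was far more abundant in VSMCs follows from how they were picked.

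**Figure D2:**
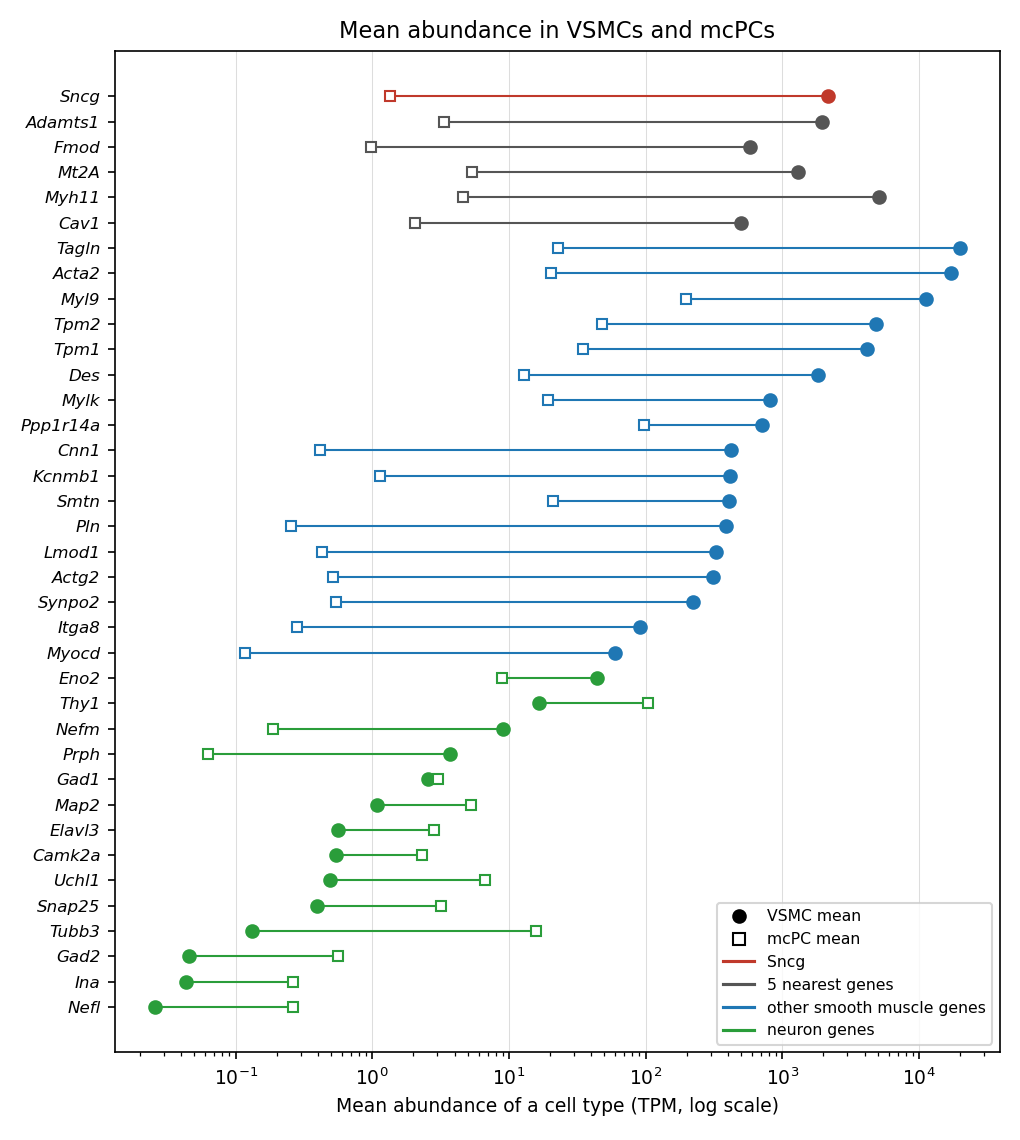
Authors' mean abundance (TPM, log scale) in VSMCs (filled circles) and mcPCs (open squares) of Sncg, its 5 nearest genes, the other smooth muscle genes and the neuron genes with a row. Sncg spans 2151 to 1.35 TPM, while the neuron genes stay at or below 44.2 TPM in VSMCs.

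Since gamma-synuclein is known from neurons, the neuron list was set beside Sncg. Of its 21 genes 14 have a row, and 11 of these were at least 4-fold higher in mcPCs, where 12.4% of all genes were. The 14 genes summed to 79.4 TPM in VSMCs, against 153 TPM in mcPCs. Most of the VSMC sum was Eno2, a glycolytic enolase of neurons, with 44.2 TPM there, 8.83 TPM in mcPCs and a log2 ratio of -0.51. Most of the mcPC sum was Thy1, a surface glycoprotein of neurons and other cells, with 16.6 TPM in VSMCs, 104.0 TPM in mcPCs and a log2 ratio of 4.49. Tubb3, a tubulin of neurons, had 0.131 TPM in VSMCs, against 15.7 TPM in mcPCs, and Snap25, a SNARE protein of synapses, had 0.392 and 3.18 TPM. Sncg alone was thus 27.1 times the sum of the list in VSMCs. Counting only genes with at least 0.8 TPM in VSMCs leaves 3 of the 11. That filter also shortens the list itself, of which 6 genes were above 1 TPM in VSMCs. Of the 12218 genes of the whole series that pass it, 657 were at least 4-fold higher in mcPCs.

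There were 2 neuron genes at least 4-fold lower in mcPCs, as Sncg was, beside 5.72% of all genes. Both encode intermediate filaments. Prph, which encodes peripherin, a filament of peripheral neurons, had 3.69 TPM in VSMCs, against 0.0633 TPM in mcPCs, from 686 and 23 reads, with a log2 ratio of -3.96. Nefm, which encodes the medium neurofilament, had 9.04 and 0.187 TPM, from 3138 and 109 reads, with a log2 ratio of -3.86. Sncg was 582 times as abundant as Prph and 237.9 times as abundant as Nefm in VSMCs. Nefl, which encodes the light neurofilament, was listed with 0.0259 TPM in VSMCs, and its log2 ratio of 5.07 was on the other side. Of the immature neuron list, 10 of 15 genes have a row, of which 0 were at least 4-fold lower in mcPCs, beside 5.72% of all genes, and 8 at least 4-fold higher, beside 12.4%. With at least 0.8 TPM in VSMCs required, 3 of the 8 are left, but the list is shortened too. Over the whole series 657 of 12218 genes with that level were at least 4-fold higher in mcPCs. The list summed to 529 TPM in VSMCs, of which Nrep, which encodes a small neuronal regeneration protein, held 446 TPM with a log2 ratio of -1.54. What part nerve fibres at the arterioles have in the Sncg level was not tested.

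In the lists for cells other than neurons and mural cells, 1 gene was at least 4-fold lower in mcPCs, beside 5.72% of all genes. Adipocyte genes, chosen because adipose tissue expresses gamma-synuclein, summed to 18.7 TPM in VSMCs, against 5.30 TPM in mcPCs, over the 5 of 8 with a row. Of these, Adipoq, which encodes the hormone adiponectin, had 11.6 TPM in VSMCs and a log2 ratio of -0.07. Lep, which encodes leptin, was that gene, with 0.177 TPM in VSMCs, and it rested on 66 reads in VSMCs and 4 in mcPCs. Its log2 ratio of -3.16 has a counting interval of -5.07 to -1.73 that reaches past the 4-fold limit, and the count falls to 0 when 0.8 TPM in VSMCs is required or on TPM relative to the median gene. At least 4-fold higher in mcPCs, as 12.4% of all genes were, stood 17 of 18 erythrocyte genes with a row, 10 of 15 endothelial genes, 6 of 6 microglia genes, 5 of 7 astrocyte genes, 3 of 7 oligodendrocyte genes and 1 of 5 fibroblast genes, and 0 of any of these lists were 4-fold lower. With at least 0.8 TPM in VSMCs required, the count fell to 1 for endothelial and oligodendrocyte genes and to 0 for microglia, astrocyte and fibroblast genes. The filter also takes genes out of these lists, and over the whole series it leaves 657 of 12218 genes at least 4-fold higher in mcPCs. Summed levels in VSMCs and mcPCs were 7315 and 542871 TPM for erythrocyte genes, 695.5 and 309.7 TPM for endothelial genes, 0.749 and 24.5 TPM for microglia genes, 27.6 and 23.6 TPM for astrocyte genes, and 19.8 and 20.7 TPM for oligodendrocyte genes. Most of the endothelial sum was Esam, with 487 TPM in VSMCs, 183.9 TPM in mcPCs and a log2 ratio of 0.43. TPM sums of mcPCs are lowered by the erythrocyte share, whereas the ratio is on normalized counts, so the 2 can differ in direction. Fibroblast genes summed to 438 TPM in VSMCs, against 110.9 TPM in mcPCs, most of it collagen, with a median log2 ratio of 1.54.

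**Figure D3:**
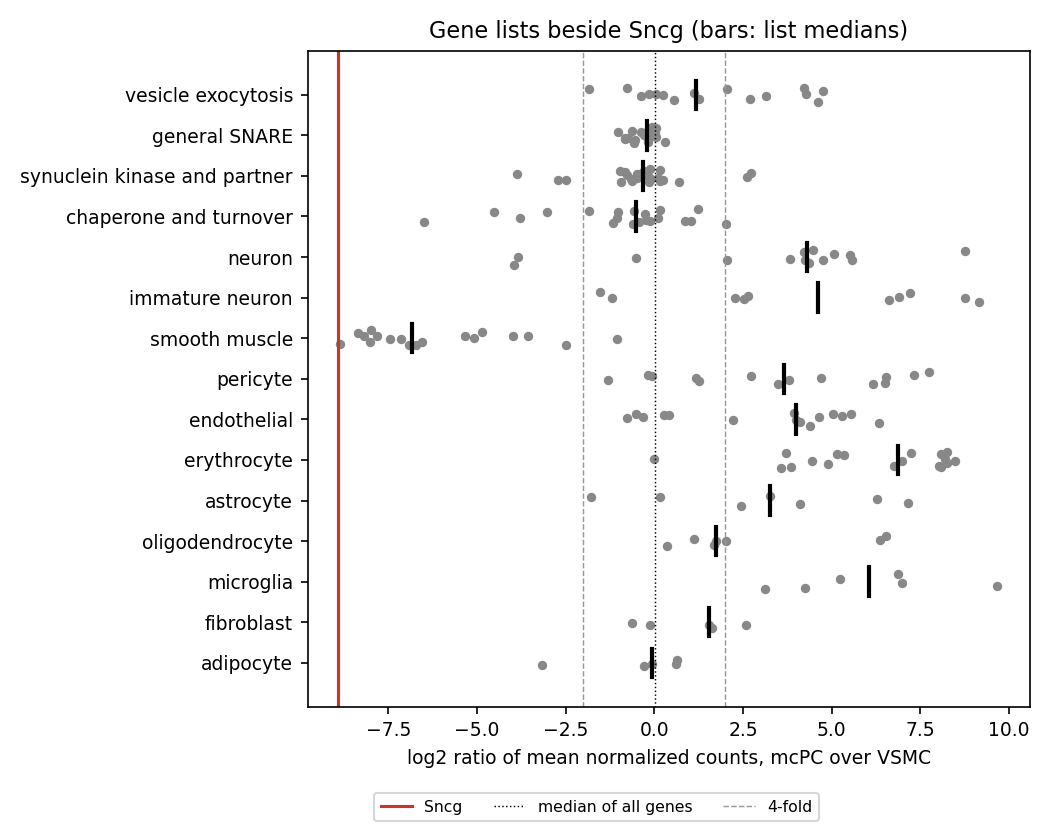
Log2 ratio of mean normalized counts, mcPC over VSMC, of each gene of the 15 lists (points) with the list median (bar), the Sncg value (red line) and the 4-fold limits (dashed lines). No gene of any list lies left of Sncg, which had been selected on this difference. The smooth muscle list, with a median of -6.83, comes closest to it.

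Vesicle exocytosis is the setting in which synucleins are best known. Of 16 such genes with a row, 0 were at least 4-fold lower in mcPCs, beside 5.72% of all genes, and 7 were at least 4-fold higher, beside 12.4%, with a median log2 ratio of 1.19. The most abundant was Vamp2, a vesicle SNARE, with 173 TPM in VSMCs, 29.2 TPM in mcPCs and a log2 ratio of -0.77. Cplx2, which encodes a complexin that binds SNARE complexes, had the lowest ratio of the list with -1.84, and Snap25 had the highest with 4.77. The 7 genes were all under 0.8 TPM in VSMCs. The 20 SNARE genes of all cells were all inside the 4-fold limits, as were 11956 of the 14607 listed genes. Their median log2 ratio of -0.21 leaned slightly to VSMCs, and the range ran from -1.04 for Stx3 to 0.30 for Stx5.

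Among the kinases and binding partners of synucleins, 3 of 24 genes were at least 4-fold lower in mcPCs and 2 were at least 4-fold higher, beside 5.72% and 12.4% of all genes, with a median log2 ratio of -0.32. The lowest was Fabp3, a fatty acid-binding protein, with 55.6 TPM in VSMCs, 1.08 TPM in mcPCs and a ratio of -3.88. Plk2 and Plk3, polo-like kinases that respond to stress, had 16.3 and 67.8 TPM in VSMCs and log2 ratios of -2.71 and -2.48. Plk1, the mitotic polo-like kinase, and Bub1b, a mitotic checkpoint kinase, were higher in mcPCs with log2 ratios of 2.72 and 2.63, from levels under 1 TPM in VSMCs. Requiring 0.8 TPM there leaves 1 of them, beside 657 of the 12218 genes that pass this filter. The most abundant gene of this list was Ywhaz, a 14-3-3 adaptor protein, with 727 TPM in VSMCs and a log2 ratio of -0.84. Sncg exceeded it, with 2151 TPM.

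Chaperone and turnover genes held 4 of 20 members at least 4-fold lower in mcPCs and 1 at least 4-fold higher, beside 5.72% and 12.4% of all genes, and their median log2 ratio was -0.50. Cryab, which encodes the small heat shock protein alpha-B crystallin, had 168 TPM in VSMCs, against 0.515 TPM in mcPCs, with a ratio of -6.48. Hspb1, another small heat shock protein, had 1918 and 24.2 TPM with -4.51, Hspa1b, the inducible Hsp70, had 1234 and 27.0 TPM with -3.78, and the ubiquitin ligase gene Siah2 had 35.8 and 1.27 TPM with -3.03. On the other side was Ctsb, the lysosomal protease cathepsin B, with 330 TPM in VSMCs, 374 TPM in mcPCs and a log2 ratio of 2.02. VSMCs and mcPCs had been through different enzyme digestions and sorts, so handling and cell type cannot be told apart for any gene here, Sncg and stress-responsive genes included.

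The direction of the Sncg difference did not depend on the scale. On 7 other scales its log2 ratio ran from -10.53 on TPM to -8.66 on TPM relative to the median gene. The median of all genes moved with the scale, from -1.72 on TPM to 0.18 on counts scaled without erythrocyte genes. Taken relative to the median of genes with at least 0.8 TPM in VSMCs, the Sncg ratio lay between -8.81 and -8.21 on all of these scales, the main one included, and its rank from the lowest between 1 and 5.

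**Figure D4:**
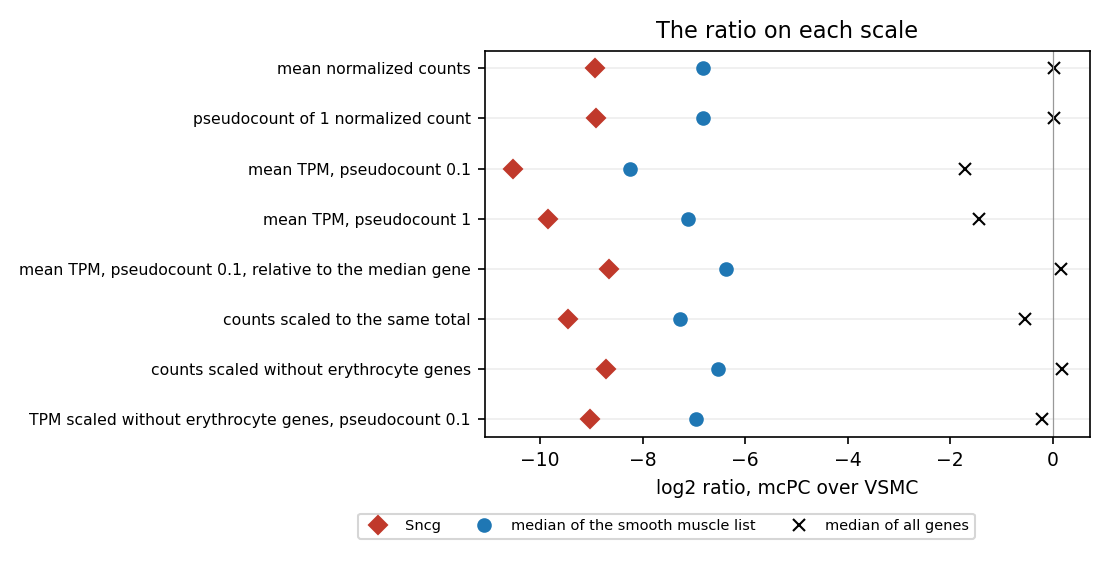
Log2 ratio of mcPCs over VSMCs on each of 8 scales for Sncg (diamonds), the median of the smooth muscle list (circles) and the median of all genes (crosses). Sncg lies left of the smooth muscle median on each scale, from -10.53 to -8.66.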

How the data were processed

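Samples were grouped by their titles. Per the labels and methods, the authors used Eoulsan for trimming, Salmon 0.8.0 with Ensembl cDNAs of Rnor_6.0 for quantification, tximport for gene sums and DESeq2 for normalization, and dropped genes for which any sample had no read. The deposited table holds means of a cell type: TPM, estimated counts, normalized counts (signal values, counts divided by normalization factors) and effective lengths. Its columns of log2 fold change, standard error, p-value and adjusted p-value are the authors' own comparison and were not used. The deposited estimated counts are means over 12 runs (3 samples, 4 runs each), since 73.5% in VSMCs and 74.7% in mcPCs times 12 came within 0.05 of a whole number. They were multiplied accordingly to give reads.

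The log2 ratio of mean normalized counts was computed without a pseudocount, with 4-fold as limit and an exact (Clopper-Pearson) conditional binomial 95% interval on the reads, rounded to whole reads. This interval covers counting error and not the spread between isolations. Members and gene lists were chosen with earlier results of these data known. Genes named are the members, the 5 nearest by TPM, the top and extreme genes of each list and list members past 4-fold. Genes lowest in ratio or nearest in level to Sncg, other genes over 1000 TPM and other list genes were named after their values were seen. Only the ratio and its counting interval were tested on simulated reads, which held no spread between isolations. Some items are not reported here. Calculations used scipy 1.17.1, numpy 2.4.6 and pandas 2.3.3 under Python 3.11.15, and plots matplotlib 3.10.9.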

Additional observations from a re-analysis of the deposited data

How the results depend on the processing

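The log2 ratio of Sncg kept its sign on 7 other scales. It was -10.53 on TPM with a pseudocount of 0.1, -9.84 with a pseudocount of 1, -8.66 on TPM relative to the median gene and -9.46 on counts scaled to the same total, all outside the counting interval. The other 3 values lay inside it. With at least 0.8 TPM in VSMCs required, the number of genes 4-fold or more above VSMCs in mcPCs was 657 of 12218. Without that filter it was 1815 of 14607. Of 90 recomputed list counts 79 stayed within 1.5 times, and 10 of the other 11 changed with that filter, which by construction leaves fewer genes. No alternative gave a value for Sncb, which has no row. No paired analysis was possible because the table gives means of a cell type, and for the same reason no sample was left out in turn.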

Other observations

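The protein-coding genes next to Sncg on chromosome 16, named from the GRCr8 annotation, did not share its ratio. Bmpr1a, a receptor for bone morphogenetic proteins, had 73.4 TPM in VSMCs, 9.44 TPM in mcPCs and a log2 ratio of normalized counts of -1.12. Mmrn2, which encodes an extracellular matrix protein of endothelial cells and lies directly beside Sncg, had 0.581 and 1.05 TPM and a ratio of 2.60. Glud1, glutamate dehydrogenase, had 99.98 and 36.7 TPM and a ratio of 0.36. Ldb3, which encodes a Z-disc protein of muscle and lies beyond Bmpr1a, had 110.9 and 3.60 TPM and a ratio of -3.11. It was the only one of these 4 at least 4-fold lower in mcPCs, beside 5.72% of all genes, and 4 genes are too few to compare with that share. The other 2 of the 6 nearest genes, Fam25a and Shld2, have no row.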
